A study of Mus musculus with 12 samples.

Results

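The 9 genes described here encode receptors and surface proteins by which macrophages are recognised and on which they depend: the growth factor receptors Csf1r, Csf2ra and Csf2rb, the lineage markers Adgre1, Cd68 and Itgam, the TAM receptor tyrosine kinases Mertk and Axl, and the scavenger receptor Marco. They were chosen by symbol, a rule that uses no measured value, and all 9 were found among the 37620 gene identifiers of the count table. Transcripts were counted by sequencing in macrophages grown from C57BL/6 mouse bone marrow, a primary culture sampled at day 7, which models macrophages outside a tissue. The 12 libraries formed 4 groups of 3, named by oxygen and added salt. Cells of the normoxia-NaCl group, the control, were kept in ordinary oxygen with 25 mM NaCl, and those of the normoxia-lactate group in ordinary oxygen with 25 mM lactate. Cells of the hypoxia-NaCl group were kept in low oxygen (1%) with 25 mM NaCl, and those of the hypoxia-lactate group in the same low oxygen with 25 mM lactate. The series concerns metabolic conditions of tumours, and the groups allow each of low oxygen and lactate to be compared alone and in combination.

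As background, Csf1r is the receptor tyrosine kinase for the ligands Csf1 and Il34 and is needed for the survival of most macrophages, including those grown from bone marrow with Csf1. Csf2ra is the ligand-binding chain of the receptor for Csf2 (GM-CSF), and Csf2rb is the signalling chain it shares with the receptors for Il3 and Il5. Adgre1 encodes the adhesion G protein-coupled receptor known as the F4/80 antigen, Cd68 a heavily glycosylated lysosomal and surface protein of the LAMP family, and Itgam the alpha chain of complement receptor Mac-1, whose beta chain is Itgb2. Mertk and Axl, with Tyro3, make up the TAM family of receptors, which bind the bridging ligands Gas6 and Pros1 on dying cells and act in their engulfment and in restraining inflammation. Marco is a class A scavenger receptor that binds bacteria and particles and is a relative of Msr1.

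Depth ran from 22705978 to 49885085 reads counted in genes, and 14616 genes passed the filter on low counts and were tested. Levels are given as CPM, counts per 1e+06 reads in genes, scaled by TMM, a correction for differences in library composition. A gene was called where edgeR's quasi-likelihood test gave a Benjamini-Hochberg adjusted p under 0.05 over all tested genes. Changes are log2 fold changes with a standard error (SE) from 1 fit of all 12 libraries, 3 per group. Nothing in the labels tells whether libraries of one group are separate animals or cultures, and the p-values therefore reflect the spread among these samples alone, which may be technical. Library hypoxia-lactate 3 stood apart, with 11437 genes of at least 10 counts against 13198 to 14767 in the others and a TMM factor of 0.742 against 0.864 to 1.102, and values without it are given beside those with all libraries. Normoxia-NaCl 1 also stood apart, with 4.75% of its reads in genes mitochondrially encoded against 0.486% to 3.51% elsewhere and the highest share of reads not aligned uniquely, 18.4%, so some values are given without both libraries. The 10 hypoxia check genes summed to 908 to 1332 CPM in the 6 normoxia libraries and 2835 to 6203 CPM in the 6 low oxygen libraries, with no overlap. All 14 macrophage markers were detected, at a summed 44401 to 60209 CPM. The markers of other cells summed to far less: neutrophil markers 2.71 to 52.5 CPM, fibroblast markers 37.4 to 146 CPM, dendritic cell markers 0 to 5.34 CPM, lymphocyte markers 2.12 to 7.28 CPM, mast cell markers 1.84 to 9.08 CPM and erythroid markers 0 to 3.71 CPM. Osteoclast markers, several of which macrophages also express, summed to 279 to 869 CPM. Xcr1, Ms4a1, Ncr1, Fcer1a, Ms4a2, Cma1, Tpsb2, Alas2 and Calcr were at 0 in all 12 libraries. The ranges of these other-cell sums overlapped between every pair of groups, except that erythroid markers summed to 1.11 to 3.71 CPM in normoxia-lactate and 0.591 to 1.09 CPM in hypoxia-NaCl, and their part in the results was not tested. In bulk RNA, fewer cells carrying a transcript and less transcript per cell cannot be told apart.

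Of the 9 genes, Cd68 and Csf1r were the most abundant for their length in the control macrophages, and Mertk and Marco the least. On the scale of CPM per kilobase of exon, Cd68 had a level of 1220 ± 321 (SD, n = 3) and Csf1r of 1053 ± 323 in normoxia-NaCl, ranks 33 and 39 among 14122 tested genes with a symbol. The ranges of the pair overlapped, 898 to 1540 for Cd68 and 761 to 1400 for Csf1r. Adgre1 followed at 250 ± 16.5 CPM per kilobase, Csf2rb at 207 ± 57.8 and Itgam at 206 ± 21.2. Csf2rb overlapped both neighbours, while the lowest Adgre1 library (232.9) lay above the highest of Itgam (220.9). Csf2ra lay at 126 ± 27.3 CPM per kilobase, and its highest library (155.3) was just above the lowest of Csf2rb (154.6). Axl was lower than these 6 genes in every library of the group, at 25.0 ± 13.6 CPM per kilobase (rank 2010), and Mertk lower again at 6.82 ± 1.21 (rank 5632). Marco stood at 0.685 ± 0.476 CPM per kilobase, rank 11391 of 14122. Marco entered the tests through its counts in normoxia-NaCl, where it is highest, so a lower level elsewhere is partly built into its passing the filter.

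**Figure D1:**
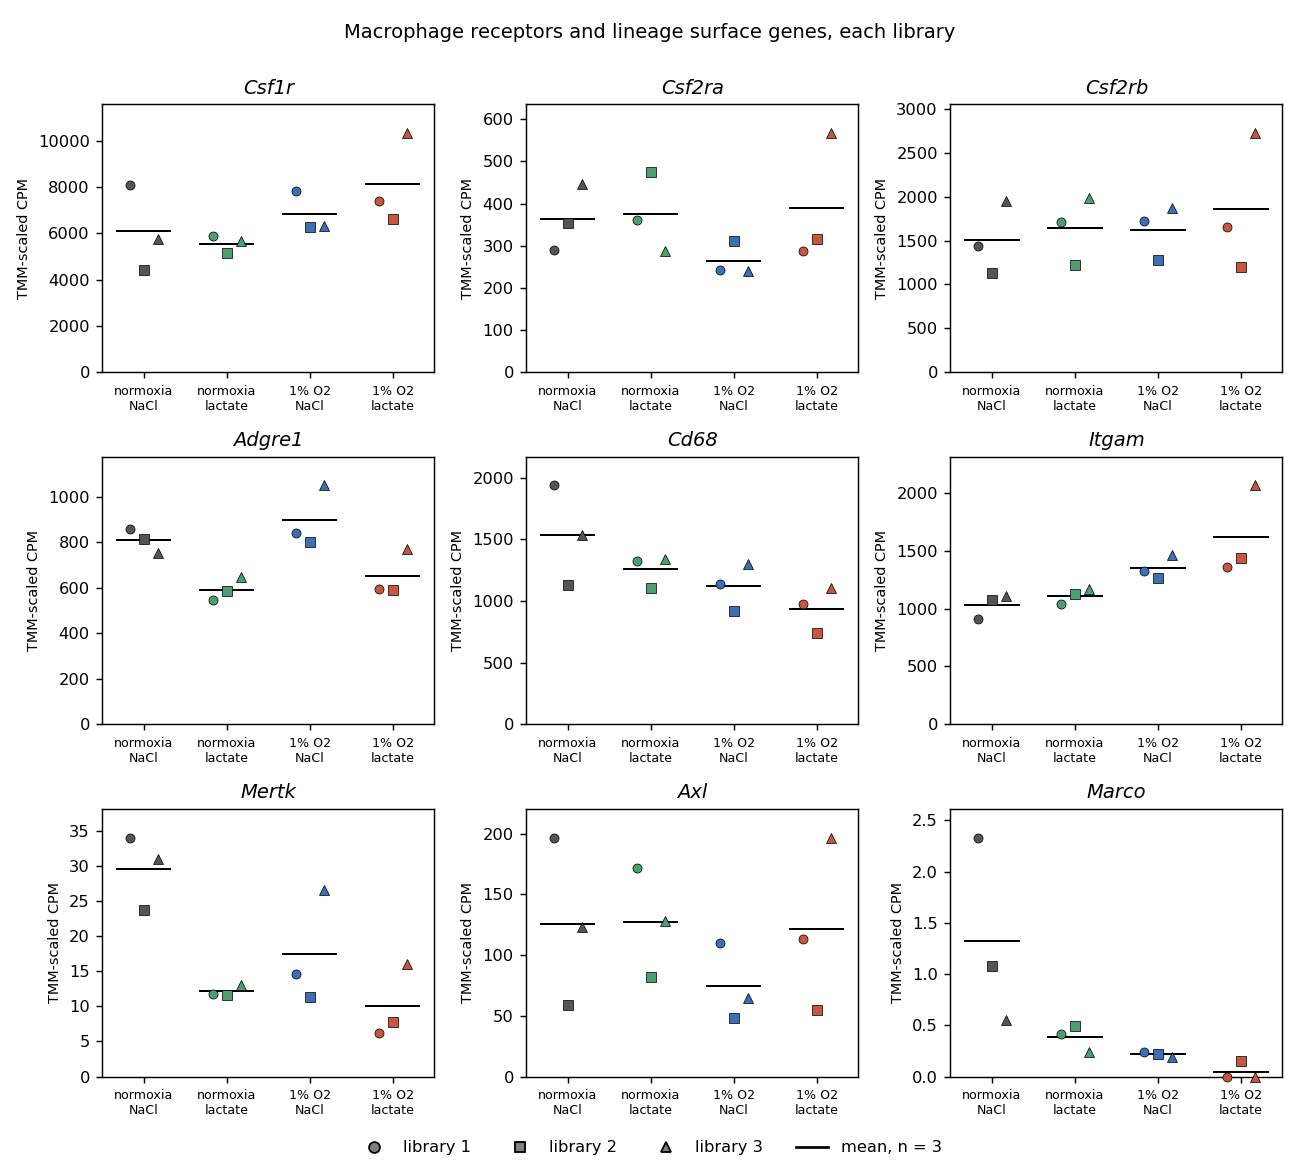
Level of each of the 9 genes in each library, in TMM-scaled CPM on a separate linear axis per gene that starts at 0, with the 3 libraries of each group as points shaped by library number and the group mean as a line. Mertk and Marco are highest in normoxia-NaCl, Itgam is higher in all 6 low oxygen libraries than in all 6 normoxia libraries, and hypoxia-lactate 3 is the highest library for Csf1r, Csf2ra, Csf2rb, Itgam and Axl.

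Mertk, Marco and Cd68 stood lower and Itgam higher in low oxygen plus lactate than in the control, with no overlap of libraries, while Csf1r, Csf2ra, Csf2rb, Adgre1 and Axl overlapped between these groups. With all 12 libraries and TMM scaling, edgeR called 0 of the 9 genes in any of the 8 comparisons. Counts of the 9 set against all genes leave Marco out, since its passing of the filter favours a lower level in the treated groups, and so refer to the other 8.

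For low oxygen plus lactate against the control edgeR called 1.61% of all tested genes, and 3 of the 8 had an unadjusted p under 0.05 (Mertk, Itgam and Cd68), against 20.7% of genes. DESeq2 called 2 of the 8 (Mertk and Itgam) and 9.92% of all genes, and limma-voom called 1 (Mertk) and 1.67% of all genes. For low oxygen averaged over both media edgeR called 1.38% of genes, and 2 of the 8 had an unadjusted p under 0.05 (Itgam and Cd68), against 15.2% of genes. DESeq2 called 1 of the 8 there (Itgam) and 5.88% of all genes, and limma-voom 0 and 1.57%. For lactate averaged over both oxygen levels edgeR called 0.0342% of genes, and 2 of the 8 had an unadjusted p under 0.05 (Mertk and Adgre1), against 6.99% of genes. DESeq2 called 0 of the 8 and 0.705% of all genes, and limma-voom 0 and 0.0342%.

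In the other comparisons edgeR called 0.281% of genes for low oxygen without lactate, 0.226% for low oxygen with lactate, and 0% each for lactate in normoxia, lactate in low oxygen and the interaction. Neither DESeq2 nor limma-voom called any of the 9 in these, where DESeq2 called 1.05%, 2.99%, 0.0684%, 0.766% and 0.00684% of all genes, in that order, and limma-voom 0.294%, 0.274%, 0%, 0% and 0%. An unadjusted p under 0.05 was found for 0 of the 8 for low oxygen without lactate (6.49% of genes), 1 for low oxygen with lactate (14.6%; Itgam), 2 for lactate in normoxia (1.55%; Mertk and Adgre1), 1 for lactate in low oxygen (11.4%; Adgre1) and 0 for the interaction (3.4%).

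Leaving out hypoxia-lactate 3, which lowered the common coefficient of variation within groups from 38.2% to 24.3%, gave edgeR calls for Mertk and, described with its own counts, Marco. Mertk was the 1 gene of the 8 called in low oxygen plus lactate (background 3.26% of genes lower and 6.86% in either direction), in low oxygen averaged over both media (3.68% lower and 7.59% in either direction) and with lactate averaged over both oxygen levels (0.133% lower and 0.305% in either direction), lower each time. None of the 9 was called without that library for low oxygen without lactate (background 1.79%), low oxygen with lactate (0.862%), lactate in normoxia (0.0331%), lactate in low oxygen (0.0398%) or the interaction (0%). The comparisons share control groups, so a gene's values in them are not independent.

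The libraries themselves separated for some genes without a call. For low oxygen without lactate 1 of the 8 did not overlap between groups, Itgam, which was higher, against 24.7% of all tested genes. With lactate present in both groups, low oxygen separated 3 of the 8 (19.6% of genes), Csf1r and Itgam higher and Cd68 lower. Lactate separated 2 of the 8 in normoxia (11.8% of genes), Adgre1 and Mertk, and 1 in low oxygen (16% of genes), Adgre1, all lower. Low oxygen plus lactate separated 3 of the 8 from the control (20.6% of genes), Itgam higher and Cd68 and Mertk lower. Itgam was the 1 gene separated by oxygen over both media (3.68% of genes), and lactate separated 0 over both oxygen levels (0.376% of genes).

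**Figure D2:**
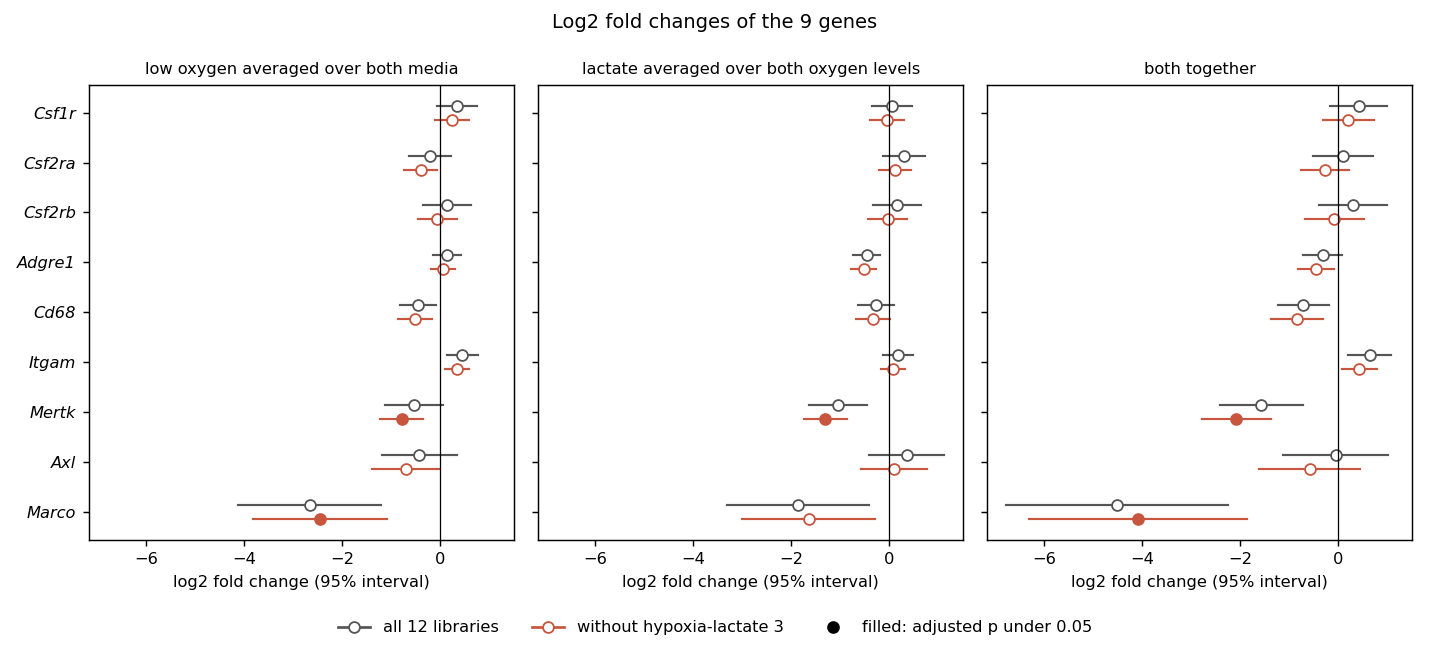
Log2 fold change of each of the 9 genes (points) with 95% intervals from the edgeR fit (lines), for low oxygen averaged over both media, lactate averaged over both oxygen levels, and both together, with all 12 libraries (grey) and without hypoxia-lactate 3 (red), filled where called. For Mertk in low oxygen plus lactate the estimate is -1.57 with all libraries and -2.08 without hypoxia-lactate 3, while the intervals of Csf2rb cross 0 in all 3 panels.

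Csf1r, the growth factor receptor that keeps these cells alive, stayed abundant in all 4 groups, and no comparison called it. Csf1r (ENSMUSG00000024621) stood at 8082, 4394 and 5772 CPM in normoxia-NaCl libraries 1 to 3 and at 5863, 5147 and 5654 CPM in normoxia-lactate. In low oxygen it stood at 7815, 6292 and 6335 CPM with NaCl and at 7412, 6612 and 10334 CPM with lactate. The hypoxia-lactate libraries all lay above the normoxia-lactate ones, whereas the groups without lactate overlapped through normoxia-NaCl 1. The log2 fold change for low oxygen averaged over both media was 0.36 ± 0.19 (adjusted p = 0.395), and 0.25 ± 0.16 without hypoxia-lactate 3 (adjusted p = 0.367). For lactate averaged over both oxygen levels it was 0.06, with a 95% interval of -0.35 to 0.47, and -0.04 without hypoxia-lactate 3. On plain library totals hypoxia-lactate 3 held 7670 CPM of Csf1r, so its place as the highest library comes with its TMM factor.

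The chains of the GM-CSF receptor were likewise not called by edgeR in any comparison, with or without hypoxia-lactate 3. Csf2ra (ENSMUSG00000059326), the ligand-binding chain, stood at 290, 353 and 446 CPM in normoxia-NaCl, 362, 474 and 288 CPM in normoxia-lactate, 243, 310 and 239 CPM in hypoxia-NaCl and 287, 316 and 567 CPM in hypoxia-lactate. All 4 groups overlapped, and hypoxia-lactate 3 was the only low oxygen library above 316 CPM. For low oxygen without lactate its log2 fold change was -0.46 ± 0.28 (adjusted p = 0.901), and for low oxygen averaged over both media -0.20 with all libraries and -0.39 ± 0.15 without hypoxia-lactate 3 (95% interval -0.72 to -0.06, adjusted p = 0.135). With library quality weights, limma-voom called Csf2ra lower for low oxygen averaged over both media (-0.41, adjusted p = 0.0338), a fit that called 15.1% of all genes.

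Csf2rb (ENSMUSG00000071713), the shared signalling chain, stood at 1435, 1125 and 1957 CPM in normoxia-NaCl and at 1709, 1224 and 1984 CPM in normoxia-lactate. In low oxygen it stood at 1728, 1278 and 1867 CPM with NaCl and at 1656, 1195 and 2726 CPM with lactate. Its libraries differed more by number than by group: number 2 was the lowest and number 3 the highest in every group. The log2 fold change was 0.15 for low oxygen averaged over both media, with a 95% interval of -0.34 to 0.64, and 0.16 for lactate averaged over both oxygen levels, with an interval of -0.33 to 0.65. Without hypoxia-lactate 3 both estimates changed sign, to -0.05 and -0.02. Csf2rb has a near-identical neighbour, Csf2rb2, the Il3-specific beta chain, and how reads were split between them is uncertain. Their summed level ranged from 1964 to 3387 CPM in normoxia-NaCl and from 2176 to 5180 CPM in hypoxia-lactate, overlapping as Csf2rb did alone. Per kilobase, Csf2rb stood at 0.778 to 0.947 of Csf2rb2 in normoxia and 0.724 to 0.793 in low oxygen, ranges that overlapped.

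Other genes of colony-stimulating factor signalling were as quiet as their receptors when all libraries were used. The Csf1 transcript itself was low, 10.6 to 32.2 CPM, and was not called in any comparison, and Il34 did not exceed 0.143 CPM. Csf2 and Il3 were at 0 in all 12 libraries, so no transcript for these ligands was seen in the cells at this depth. Csf3r, the receptor for the granulocyte factor, stood at 31.9 to 82.8 CPM in 11 libraries and 180 CPM in hypoxia-lactate 3. In low oxygen plus lactate 0 of the 20 tested genes of this list were called with all libraries, with a median log2 fold change of 0.02 against -0.01 over all genes. Without hypoxia-lactate 3 the genes called included Sos1, a guanine exchange factor for Ras, which was higher (0.68), and Il3ra, the Il3 receptor alpha chain, which was lower (-1.16). That fit called 6.86% of all genes in either direction.

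Adgre1 stood lower with lactate at both oxygen levels, in every library, and no edgeR fit of all 12 libraries called it. Adgre1 (ENSMUSG00000004730) stood at 861, 816 and 754 CPM in normoxia-NaCl and 545, 585 and 646 CPM in normoxia-lactate. In low oxygen it stood at 843, 804 and 1050 CPM with NaCl and at 594, 592 and 770 CPM with lactate. At each oxygen level all lactate libraries lay under all NaCl libraries, which held for 6.16% of tested genes in normoxia and 9.3% in low oxygen. The log2 fold change with lactate was -0.45 ± 0.19 in normoxia and -0.46 ± 0.19 in low oxygen, and averaged over both -0.46 ± 0.13 (unadjusted p = 0.00419, adjusted p = 0.555). Without hypoxia-lactate 3 the averaged value was -0.52 ± 0.12 (adjusted p = 0.0811). Low oxygen averaged over both media gave 0.14, with a 95% interval of -0.14 to 0.43, and 0.07 without hypoxia-lactate 3.

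Cd68 and Itgam, both common macrophage markers, stood on opposite sides of the control in low oxygen. Cd68 (ENSMUSG00000018774) stood at 1936, 1128 and 1537 CPM in normoxia-NaCl, 1325, 1104 and 1341 CPM in normoxia-lactate, 1139, 917 and 1303 CPM in hypoxia-NaCl and 972, 737 and 1102 CPM in hypoxia-lactate. The hypoxia-lactate libraries lay under all normoxia libraries, by a narrow margin for number 2 of each normoxia group (1128 and 1104 CPM). In low oxygen plus lactate the log2 fold change of Cd68 was -0.71 ± 0.24 (adjusted p = 0.136), and -0.84 ± 0.25 without hypoxia-lactate 3 (adjusted p = 0.0559).

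Itgam (ENSMUSG00000030786) stood at 911, 1078 and 1110 CPM in normoxia-NaCl and at 1037, 1130 and 1170 CPM in normoxia-lactate. In low oxygen it stood at 1324, 1264 and 1459 CPM with NaCl and at 1355, 1434 and 2064 CPM with lactate. It was the only one of the 9 whose 6 low oxygen libraries did not overlap the 6 normoxia libraries, a separation that 3.68% of tested genes showed (2.24% in the higher direction). The log2 fold change for low oxygen averaged over both media was 0.46 ± 0.14 (unadjusted p = 0.00669, adjusted p = 0.157). It was 0.35 ± 0.11 without hypoxia-lactate 3 (adjusted p = 0.0702) and 0.31 ± 0.09 without that library and normoxia-NaCl 1 (adjusted p = 0.0455), so it was called in the last of these fits. On plain library totals hypoxia-lactate 3 held 1532 CPM of Itgam, against 2064 CPM after TMM scaling. Neutrophils also carry Itgam, and the summed neutrophil markers, 2.80 to 52.5 CPM in normoxia-NaCl and 2.92 to 35.5 CPM in hypoxia-lactate, overlapped between groups. An overlapping transcript on the same strand, Gm49368, is annotated at the locus, so some Itgam reads may belong to it.

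Ratios of these transcripts within a library do not depend on how libraries are scaled, and are given as a description because they were chosen after the values had been seen. Per kilobase, Csf1r over Cd68 ran from 0.818 to 1.01 in the 6 normoxia libraries and from 1.06 to 2.04 in the 6 low oxygen libraries. Itgam over Cd68 ran from 0.118 to 0.256 in normoxia and from 0.280 to 0.487 in low oxygen. Neither ratio overlapped between oxygen levels, so within every low oxygen library Csf1r and Itgam made up more of the RNA relative to Cd68 than in any normoxia library. Itgam alone already separated the oxygen levels, and the share of other gene pairs that separate in this way is not given here. Itgam over its partner chain Itgb2 ran from 0.250 to 0.472 in normoxia and from 0.474 to 0.630 in low oxygen, ranges that all but met. Itgb2 itself stood at 1382 to 2356 CPM with no call (log2 fold change in low oxygen plus lactate -0.17 ± 0.24).

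Among leukocyte integrins and their partners, 2 of 19 tested genes rose in low oxygen plus lactate and none fell (background 1.17% higher, 0.438% lower). Itga4, the alpha 4 integrin chain, rose from 149, 172 and 167 CPM in normoxia-NaCl to 333, 311 and 247 CPM in hypoxia-lactate, a log2 fold change of 0.87 ± 0.18 (adjusted p = 0.031). Rasgrp3, an exchange factor for Ras-family proteins, rose by 1.56 ± 0.34 (adjusted p = 0.0431). Without hypoxia-lactate 3 the values of Itga4 and Rasgrp3 were 0.99 and 1.83 (adjusted p = 0.00347 and 0.00242). The count was then 3 of 20 higher (background 3.6% higher). The added gene was Itgae, an integrin chain that did not pass the count filter with all libraries. Itgae was near the limit of detection, so its passing the filter may itself favour a higher level in low oxygen plus lactate. Apart from Itgae, the genes called higher were again Itga4 and Rasgrp3. Among adhesion G protein-coupled receptors and LAMP relatives, the families of Adgre1 and Cd68, 0 of 9 were called with all libraries (background 1.61%). Without hypoxia-lactate 3 Adgre4 was called lower (-2.86) and Adgrl2 higher (0.70), in a fit that called 6.86% of all genes in either direction. Adgre4 was near the limit of detection, at 0 to 2.67 CPM.

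Mertk was the receptor called under the most settings, and its level was highest in the control and lower with lactate, with low oxygen and with both. Mertk (ENSMUSG00000014361) stood at 34.0, 23.8 and 30.9 CPM in normoxia-NaCl and at 11.8, 11.6 and 13.0 CPM in normoxia-lactate. In low oxygen it stood at 14.5, 11.3 and 26.6 CPM with NaCl and at 6.19, 7.77 and 16.0 CPM with lactate. The lactate libraries of both oxygen levels lay under all control libraries, while hypoxia-NaCl 3 lay within the control range and hypoxia-lactate 3 above the other lactate libraries. In low oxygen plus lactate the log2 fold change was -1.57 ± 0.39 (2.97-fold lower, unadjusted p = 0.00164, adjusted p = 0.0693), so in this fit it missed the threshold. Without hypoxia-lactate 3 Mertk fell by 2.08 ± 0.32 on the log2 scale (adjusted p = 0.00314). With the library number as a block the value was -1.66 (adjusted p = 0.0303), although the numbers were not taken to pair the libraries in this comparison.

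Lactate alone, in normoxia, gave a Mertk log2 fold change of -1.29 ± 0.39 (2.44-fold lower, unadjusted p = 0.00588, adjusted p = 1), and -1.28 ± 0.27 without hypoxia-lactate 3 (adjusted p = 0.364). Limma-voom with quality weights called Mertk lower with lactate in normoxia (-1.24, adjusted p = 0.0319), in a fit that called 0.0753% of all genes. So did edgeR with the number as a block and hypoxia-lactate 3 left out (-1.27, adjusted p = 0.0405), which called 0.285%. In low oxygen the lactate value was -0.81 ± 0.39 with all libraries and -1.32 ± 0.31 without hypoxia-lactate 3 (adjusted p = 0.248). The difference between these lactate effects, the interaction, was 0.47 with a 95% interval of -0.70 to 1.65, and -0.04 without hypoxia-lactate 3 with an interval of -0.91 to 0.82. Averaged over both oxygen levels the lactate value was -1.05 ± 0.27 (adjusted p = 0.424), and without hypoxia-lactate 3 Mertk fell by 1.30 ± 0.21 (adjusted p = 0.027). For low oxygen averaged over both media the value was -0.52 ± 0.27 (adjusted p = 0.389), and -0.78 ± 0.20 without that library (adjusted p = 0.037).

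Axl, the other TAM receptor at a measurable level, was not called in any comparison with all libraries and varied mainly between library numbers. Axl (ENSMUSG00000002602) stood at 196, 59.1 and 123 CPM in normoxia-NaCl, 172, 81.8 and 128 CPM in normoxia-lactate, 110, 48.4 and 64.3 CPM in hypoxia-NaCl and 113, 54.9 and 197 CPM in hypoxia-lactate. Number 2 was the lowest in each group, and all groups overlapped. In low oxygen plus lactate the log2 fold change was -0.05 ± 0.50 with all libraries and -0.58 ± 0.48 without hypoxia-lactate 3 (adjusted p = 0.965 and 0.468). For low oxygen without lactate it was -0.76 ± 0.50 (adjusted p = 0.923), and again -0.76 without that library. With the number as a block and hypoxia-lactate 3 left out, Axl was called lower for low oxygen without lactate (-0.70, adjusted p = 0.0203), the comparison in which the numbers do pair the libraries. The ratio of Axl to Mertk per kilobase ran from 2.08 to 6.52 in the 6 NaCl libraries and from 6.07 to 15.7 in the 6 lactate libraries, with a slight overlap.

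**Figure D3:**
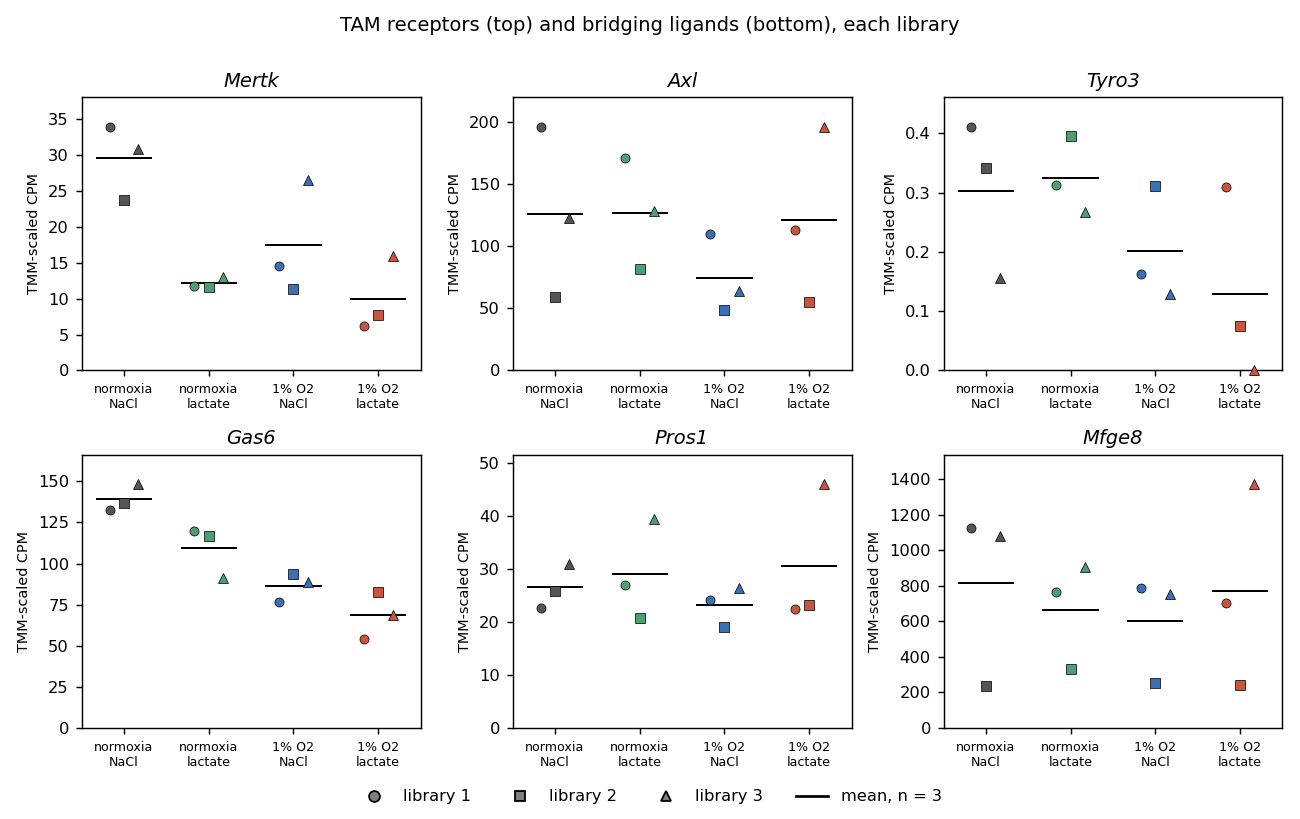
Level of the receptors Mertk, Axl and Tyro3 and the bridging molecules Gas6, Pros1 and Mfge8 in each library, in TMM-scaled CPM on linear axes that start at 0, with points shaped by library number and group means (n = 3) as lines. Gas6 is at 133 to 148 in normoxia-NaCl and 54.4 to 82.7 in hypoxia-lactate, Tyro3 does not exceed 0.411, and library number 2 is the lowest of each group for Axl and Mfge8.

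The ligand Gas6 fell in low oxygen plus lactate, whether or not hypoxia-lactate 3 was used. Gas6 stood at 133, 137 and 148 CPM in normoxia-NaCl, 120, 117 and 91.3 CPM in normoxia-lactate, 76.3, 93.6 and 88.6 CPM in hypoxia-NaCl and 54.4, 82.7 and 68.7 CPM in hypoxia-lactate. The 3 hypoxia-lactate libraries lay under every normoxia library, and normoxia-lactate 3 lay within the range of hypoxia-NaCl. Its log2 fold change was -1.02 ± 0.19 (adjusted p = 0.0204) in low oxygen plus lactate and -0.68 ± 0.13 (adjusted p = 0.0288) for low oxygen averaged over both media. Without hypoxia-lactate 3 these values were -1.02 (adjusted p = 0.00899) and -0.69 (adjusted p = 0.00741). The other ligand, Pros1, stood at 19.0 to 46.0 CPM with no call, and Tyro3, the third receptor, did not exceed 0.411 CPM. Of 23 tested genes of TAM ligands and apoptotic cell clearance, 2 fell in low oxygen plus lactate (background 0.438% lower): Gas6 and Tgm2, a transglutaminase that acts in engulfment, which fell by 1.51 ± 0.19 (adjusted p = 0.00206), and by 1.54 without hypoxia-lactate 3 (adjusted p = 0.000844). Without hypoxia-lactate 3, 7 of 24 fell (background 3.26%), adding C1qa (-2.49), C1qb (-1.97) and C1qc (-1.68), the chains of complement C1q, the integrin chain Itgb5 (-1.09) and the nuclear receptor Nr1h3 (-0.73). None of the list rose, and its median log2 fold change was -0.23 with all libraries and -0.50 without hypoxia-lactate 3, against -0.01 over all genes in both.

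Marco was near the limit of detection and its counts were lower in each treated group. It passed the filter through its counts in normoxia-NaCl, so a lower level elsewhere is partly built into the tests given here. Marco (ENSMUSG00000026390) had 51, 41 and 28 counts in normoxia-NaCl, 20, 25 and 11 in normoxia-lactate, 12, 7 and 6 in hypoxia-NaCl and 0, 4 and 0 in hypoxia-lactate. Summed over each group and divided by the group's scaled library sizes, this was 1.08, 0.390, 0.223 and 0.0551 CPM. Relative to normoxia-NaCl the summed level was 2.77-fold lower with lactate (95% interval 2.00 to 3.88), 4.86-fold lower in low oxygen (3.14 to 7.81) and 19.6-fold lower with both (7.47 to 73.2), intervals that cover counting error only. The control libraries themselves spanned 0.548 to 2.33 CPM. In low oxygen plus lactate edgeR gave a log2 fold change of -4.52 ± 1.04 (adjusted p = 0.0525) and without hypoxia-lactate 3 of -4.09 ± 1.03 (adjusted p = 0.0338), values that depend on the prior count because libraries are at 0. With all libraries DESeq2 and limma-voom called it lower there (adjusted p = 0.000641 and 0.0303), in fits that called 9.92% and 1.67% of all genes. Without hypoxia-lactate 3 and normoxia-NaCl 1 the edgeR call was lost (adjusted p = 0.0633). For low oxygen averaged over both media the value was -2.66 ± 0.67 (adjusted p = 0.081), and -2.45 ± 0.63 without hypoxia-lactate 3 (adjusted p = 0.0358).

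Of 14 tested scavenger receptors, 2 fell in low oxygen plus lactate (background 0.438% lower) and none rose, with a median of 0.00. Msr1, the class A relative of Marco, fell from 172, 179 and 120 CPM in normoxia-NaCl to 68.7, 101 and 54.5 CPM in hypoxia-lactate (log2 fold change -1.07 ± 0.24, adjusted p = 0.0486). Mrc1, the mannose receptor, fell by 2.76 ± 0.46 (adjusted p = 0.012), from 21.8, 26.5 and 21.9 CPM to 3.10, 5.89 and 1.25 CPM. In both genes the hypoxia-lactate libraries lay under all control libraries. Without hypoxia-lactate 3 the same pair was called lower (background 3.26% lower), Msr1 at -0.89 and Mrc1 at -2.38.

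**Figure D4:**
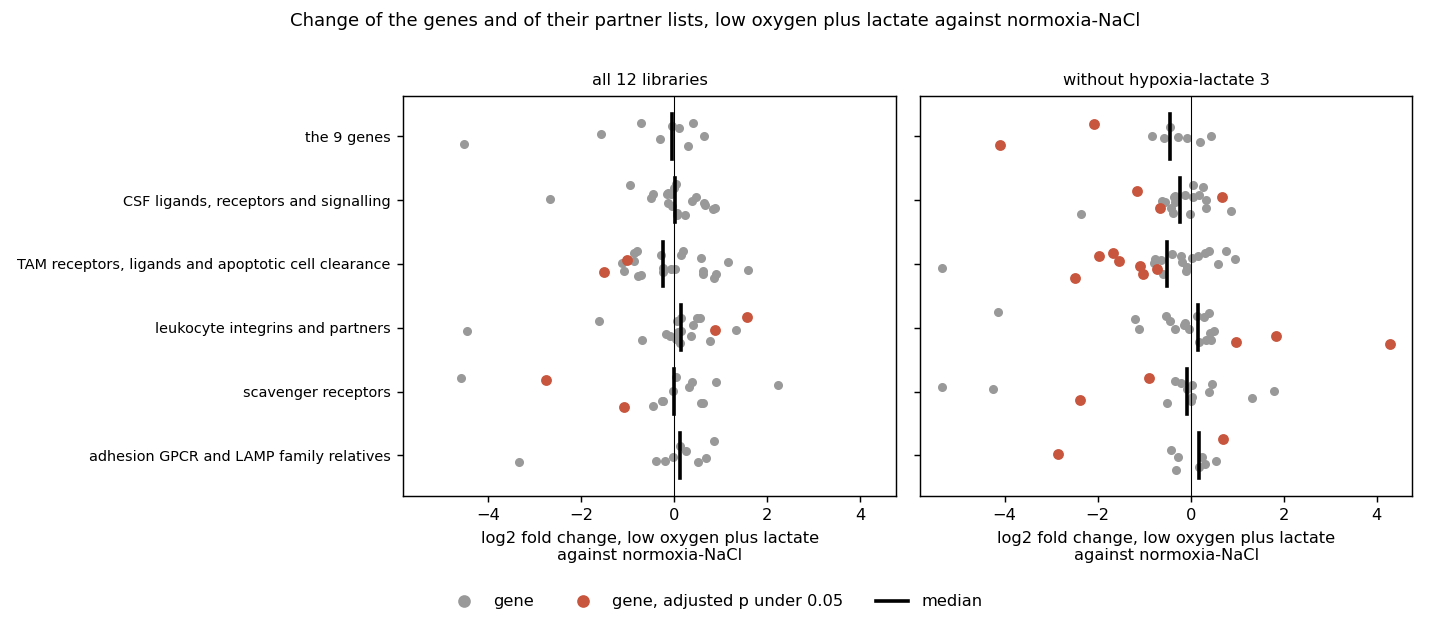
Log2 fold change of the genes of each list in low oxygen plus lactate against normoxia-NaCl, each point a tested gene, red where called and grey where not, with the list median as a black line, for all 12 libraries and without hypoxia-lactate 3. Called genes of the apoptotic cell clearance list are 2 with all libraries and 7 without hypoxia-lactate 3, all of them lower.

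The sequences just upstream of the transcription starts of Mertk, Marco and Itgam are shown because these were the genes of the 9 with the smallest unadjusted p-values in low oxygen plus lactate. RefSeq entries (GRCm38.p6) were matched for 6 of the 9, and each window holds the 250 bases before the start, written 5′ to 3′ on the gene's strand. Both strands were searched for the hypoxia response core, ACGTG or GCGTG, found in 38.6% of 32851 such windows, and for GAGGAA, the core of sites of the macrophage factor PU.1, found in 23.2% of them, and matches are in capitals. Mertk lies at chr2:128698665-128698914 (plus strand), Marco at chr1:120505025-120505274 (minus strand) and Itgam at chr7:128062390-128062639 (plus strand).
Mertk: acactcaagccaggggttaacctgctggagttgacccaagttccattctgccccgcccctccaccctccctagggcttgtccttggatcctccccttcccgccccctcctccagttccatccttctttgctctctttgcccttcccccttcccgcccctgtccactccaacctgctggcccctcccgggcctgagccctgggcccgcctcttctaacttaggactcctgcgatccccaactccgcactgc
Marco: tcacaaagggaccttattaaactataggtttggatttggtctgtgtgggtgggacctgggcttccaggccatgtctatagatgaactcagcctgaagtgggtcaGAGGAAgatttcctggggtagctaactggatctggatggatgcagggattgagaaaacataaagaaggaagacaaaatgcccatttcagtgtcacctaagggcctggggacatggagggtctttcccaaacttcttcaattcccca
Itgam: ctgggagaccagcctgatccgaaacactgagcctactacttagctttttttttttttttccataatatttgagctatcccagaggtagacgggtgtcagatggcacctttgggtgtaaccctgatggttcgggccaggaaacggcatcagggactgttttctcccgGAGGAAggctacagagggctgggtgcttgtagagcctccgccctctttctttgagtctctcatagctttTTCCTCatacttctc

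The Mertk window held neither motif, at 63.6% G and C with 7 CG steps. Marco's had 1 GAGGAA match and 0 CG steps at 47.6% G and C, and Itgam's had 2 GAGGAA matches, at bases 84 to 79 and 15 to 10 before the start. None of these 3 windows held the hypoxia response core, which among the 6 matched genes was found once, in Csf2ra. A match describes letters, not binding.

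Some of these receptors varied with the library number in all 4 groups. On the TMM scale, number 2 was the lowest library of every group for 4 of the 9 genes (Csf1r, Csf2rb, Cd68 and Axl), against 3.59% of all tested genes. On plain library totals it was so for 3 of the 9 (Csf2rb, Cd68 and Axl), against 1.87% of genes. Number 3 was the highest of every group for Csf2rb and Itgam on the TMM scale (2.76% of genes), and for Csf2rb and Mertk on plain library totals (1.94% of genes). On plain totals number 1 was the lowest of every group for Itgam (1.01% of genes). Mfge8, another bridging molecule of apoptotic cell clearance, was also lowest in number 2 of each group, at 234, 329, 253 and 243 CPM, and was singled out after its values were seen. What the numbers stand for is not given in the sources used here, and the pattern was noticed after the values had been seen.

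Across the 12 libraries, the genes whose log2 CPM followed each receptor most closely are given as a description, without a test, since all points share libraries and groups. Over 9194 genes, Csf1r was most like Tmem189 (Pearson r = 0.93, and 0.91 without hypoxia-lactate 3), Otulin and Dock8. Csf2ra was most like Sept9 (0.93), Zbed5 and Tmem94, and Csf2rb like Sdc1 (0.98, and 0.96 without that library), Plxna1 and Galnt9. Adgre1 was most like Pmp22 (0.91, and 0.93), Maf and P2rx7, and Cd68 like Pld3 (0.94 both ways), Mov10 and Plxdc1. Mertk was most like Mocos (0.96, and 0.97), Ech1 and C1qb, Itgam like Ythdc1 (0.97, and 0.96) and Asph, and Axl like Tmem151a (0.94, and 0.92), Mboat7 and Hvcn1. Marco, at few counts, was most like Arl2bp (0.95, and 0.94), Supt3 and Fam213b. Among pairs of the 9, the strongest relation was between Itgam and Marco (r = -0.85, and -0.82 without hypoxia-lactate 3), and next Cd68 and Mertk (0.78 both ways).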

How the data were processed

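The deposited table holds whole-number read counts for each Ensembl gene in the 12 libraries. Per the labels' protocols, poly(A) RNA was sequenced on an Ion Proton. BWA, HTSeq and mm9 appear, without versions, in the submitters' processing notes. The strand setting and annotation release of the counting are not given here or in the labels, which leaves overlapping genes (Csf1r with Hmgxb3 on the opposite strand, Itgam with Gm49368) and near-identical copies uncertain. The 5 counter rows that name no gene were left out. They held 8.34% to 18.4% (not unique), 0.361% to 0.443% (ambiguous), 13.7% to 22.0% (no feature), 2.02% to 5.49% (not aligned) and 0% (low quality) of reads. Groups come from the sample labels. No pair of libraries held identical values.

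The 8 comparisons were contrasts of 1 edgeR 4.0.16 quasi-likelihood fit (TMM, filterByExpr, R 4.3.3), with Benjamini-Hochberg adjustment over 14616 genes and a threshold of 0.05. The SE was taken back from the F statistic as |log2 fold change|/√F. Exon lengths and symbols came from GENCODE vM21 (GRCm38), and all 192 listed names were matched. The code was tested on simulated data. Alternatives were RLE, upper-quartile and plain library totals, no filter or 5 CPM on average, limma-voom (limma 3.58.1) with and without quality weights, DESeq2 1.42.0, the library number as a block, only the groups compared, and libraries left out. Plain library totals were added after seeing the data.

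For low oxygen without lactate, deviations of same-numbered libraries correlated at 0.138 to 0.315, so numbers were taken to pair the libraries there. Elsewhere the lowest such correlation was -0.069 to 0.082, and the numbers were not taken to pair libraries. For low oxygen with lactate and lactate in low oxygen, all 3 hypoxia-lactate libraries still correlated best with their own number, so a lack of pairing there is uncertain. The 9 genes, the gene lists and the tests were chosen with earlier results of these data known. Named genes are the 9, their ligands and partners, up to 3 called genes per list by smallest adjusted p, and the 3 tested genes of at least 5 CPM most correlated with each. Genes named from the fit without hypoxia-lactate 3 were chosen after their values were seen. Some genes covered by the rule for named genes are not reported here.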

Additional observations from a re-analysis of the deposited data

How the results depend on the processing

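No call among the 9 reversed direction under any alternative run. EdgeR's test of all 12 libraries, with TMM scaling and the filter given above, called 0 of the 9 in any comparison. Counts below leave out Marco, whose passing of the filter favours a lower level in treated groups, and so refer to the other 8. Beside most counts, the share of all tested genes called under the same setting is given in parentheses. For low oxygen plus lactate the count was 1 with upper-quartile factors (1.35%), a filter at a mean of 5 CPM (2.41%), plain library totals (1.18%), the replicate block (Mertk, 2.29%), or without both hypoxia-lactate 3 and normoxia-NaCl 1 (5.98%). It was also 1 with no filter (1.42%) or limma-voom (1.67%). It was 2 with DESeq2 (9.92%), with quality weights (7.38%), or in the blocked fit lacking hypoxia-lactate 3 (14%). Leaving out 1 library at a time gave 1 without hypoxia-lactate 3 (Mertk, 6.86%) and 0 otherwise. Marco, which is not counted here, was also called without hypoxia-lactate 3, and without hypoxia-lactate 2 (-8.62, in a fit that called 4.6% of all genes). Hypoxia-lactate 2 was the only library of its group with Marco counts. For low oxygen averaged over both media the count was 1 with DESeq2 (5.88%), 4 with quality weights (15.1%), 2 without both libraries (8.94%) and 4 in the blocked fit lacking hypoxia-lactate 3 (14.7%). Leaving out 1 library gave 1 there without hypoxia-lactate 3 (7.59%) and 0 otherwise. For lactate averaged over both oxygen levels the count was 2 with quality weights (1.18%), 1 without both libraries (0.361%) and 2 in the blocked fit lacking hypoxia-lactate 3 (1.7%). Leaving out 1 library gave 1 there without hypoxia-lactate 3 (0.305%) and 0 otherwise. For low oxygen without lactate quality weights gave 1 (Mertk, 3.59%) and the blocked fit lacking hypoxia-lactate 3 gave 1 (Axl, 5.08%). For lactate in normoxia the same 2 fits gave 1 (0.0753%) and 1 (0.285%), Mertk in both. The cause of these differences was not tested.

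Mertk in low oxygen plus lactate was lower under all 24 alternatives (-2.08 to -1.32) and called under 11, with adjusted p from 0.00117 to 0.460. Itgam for low oxygen averaged over both media was higher under all 23 (0.31 to 0.51) and called under 4. Axl for low oxygen with lactate kept its sign under 20 of 24. The block alone changed no call of the 9 other than Mertk's. Over all genes, calls for low oxygen plus lactate ranged from 6 to 2116 (235 with all libraries), for low oxygen without lactate from 7 to 767 (41), with lactate from 3 to 737 (33), for low oxygen averaged from 81 to 2211 (201), for lactate in normoxia from 0 to 43 (0), in low oxygen from 0 to 112 (0), averaged from 0 to 256 (5), and for the interaction from 0 to 2 (0). Upper-quartile scaling shifted the median of all genes by -0.13 for low oxygen with lactate and -0.11 for low oxygen plus lactate, and plain library totals shifted the interaction's by -0.16. DESeq2 gave no adjusted p for Marco with lactate in normoxia. Marco's 0 to 51 counts per library limit what can be said of it.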
